A study of Mus musculus with 8 samples.

Results

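The 42 genes described here encode proteins that build peroxisomes or work inside them. They are 13 peroxins, the proteins of peroxisome assembly, and 29 enzymes, transporters and membrane proteins of peroxisomal lipid and amino acid metabolism. They were picked by gene symbol from the 35275 genes of the deposited table, and all 42 symbols were found. The choice rule uses no measured value, but it was made with earlier results of these data known.

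Peroxisomes are small single-membrane organelles that shorten very long-chain and branched fatty acids, oxidise D-amino acids and hydroxy acids, and carry out the opening steps of ether lipid synthesis. They have no DNA of their own. Their matrix proteins are made in the cytosol and carried in by receptors that read short address signals, most often a tripeptide of the serine-lysine-leucine kind at the very end of the protein. In the kidney they are most abundant in the cells of the proximal tubule, which run largely on fatty acid oxidation.

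RNA was sequenced from the whole left kidney of 8 male mice aged 40 weeks, 4 without functional C1qtnf1 (genotype Ctrp1-/-, KO) and 4 wild-type (WT) littermates. C1qtnf1 encodes the secreted protein CTRP1. The KO allele, made in 129S5/Sv stem cells, lacks 679 bp of exon 4, of which 162 bp are 3' UTR, and had been crossed to C57BL/6J for more than 6 generations. The deletion was inherited and is not confined to the kidney, and all 8 mice had eaten a high-fat diet (60% of calories from fat) from the age of 6 weeks. The mice show only the effect of genotype on this diet, since none on another diet was measured. The comparison of KO with WT was the only contrast, with 4 mice in each group.

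Depth was 17884140 to 20344859 reads per library. C1qtnf1 was at 5.27 to 5.55 FPKM (fragments divided by gene length and library depth) in the 4 WT mice and at 0.322 to 0.883 FPKM in the 4 KO mice, so each library matched its label. KO replicate 2 stood apart. Its deposited FPKM summed to 525275, against 437496 to 450339 in the other 7 libraries, and it was the highest or the lowest of the 8 in 66.9% of all genes tested. Results are therefore also given without it. Markers of the proximal tubule were high, with a summed level of 4119 to 5523 FPKM for the 9 genes of its first segments over the 8 libraries. None of the 6 adipocyte markers reached a mean of 1 FPKM.

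An address signal of the serine-lysine-leucine kind was looked for at the end of the coding sequence of each gene, as codons of serine, alanine or cysteine, then lysine, arginine or histidine, then leucine or methionine (GENCODE M21, build mm10). It was found in 14 of the 29 enzymes, transporters and membrane proteins (48.3%) and in 0 of the 13 peroxins. It was also found in 20 of 47 other peroxisomal genes (42.6%) and in 112 of 21622 protein-coding genes of the annotation (0.518%). The last 24 coding bases of 5 matrix enzymes that carry it follow, with the 9 bases of the signal in capitals, to show the forms of the signal and their codons, which are the serine-lysine-leucine form itself in Ehhadh and Ech1 and relatives of it in Pecr, Dao and Hao2.
Ehhadh: ggaccccatagcAGCAAACTGtga
Ech1: agcatcaccttcTCCAAGCTCtga
Pecr: tttaagaagaaaGCCAAGCTCtaa
Dao: aggttgcctcccTCCCACCTCtga
Hao2: ctgattcagttcTCCAGATTAtaa

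The enzymes at the centre of the comparison below include some without this ending. Hacl1 and Acaa1b are shown because their KO values lay farthest below WT, and Acaa1a because it ends in the same 24 bases as Acaa1b. The absence of these letters says nothing about how a protein reaches the peroxisome, since other signals exist.
Hacl1: tggctcacccgttctaacatgtga
Acaa1b: gtctttgaataccctgggaactga
Acaa1a: gtctttgaataccctgggaactga

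Levels of the 42 genes spanned a wide range in WT kidney, and metabolic genes stood above assembly genes. The median WT level was 21.7 FPKM for the 13 peroxins and 58.3 FPKM for the other 29 genes, against 8.83 FPKM over all genes tested. A level above 100 FPKM was reached by 11 of the 42 genes, and 0 of these were peroxins. The 5 highest were Ech1, Pecr, Phyh, Dao and Acaa1b. Abcd2, a transporter of very long-chain acyl-CoA, was at the other end, with 0.00889 to 0.101 FPKM (1 to 10 reads) over the 8 mice, too low to be tested. Between the 4 WT mice the 41 tested genes varied little, with a median coefficient of variation of 7.07%, against 8.89% over all genes tested.

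**Figure D1:**
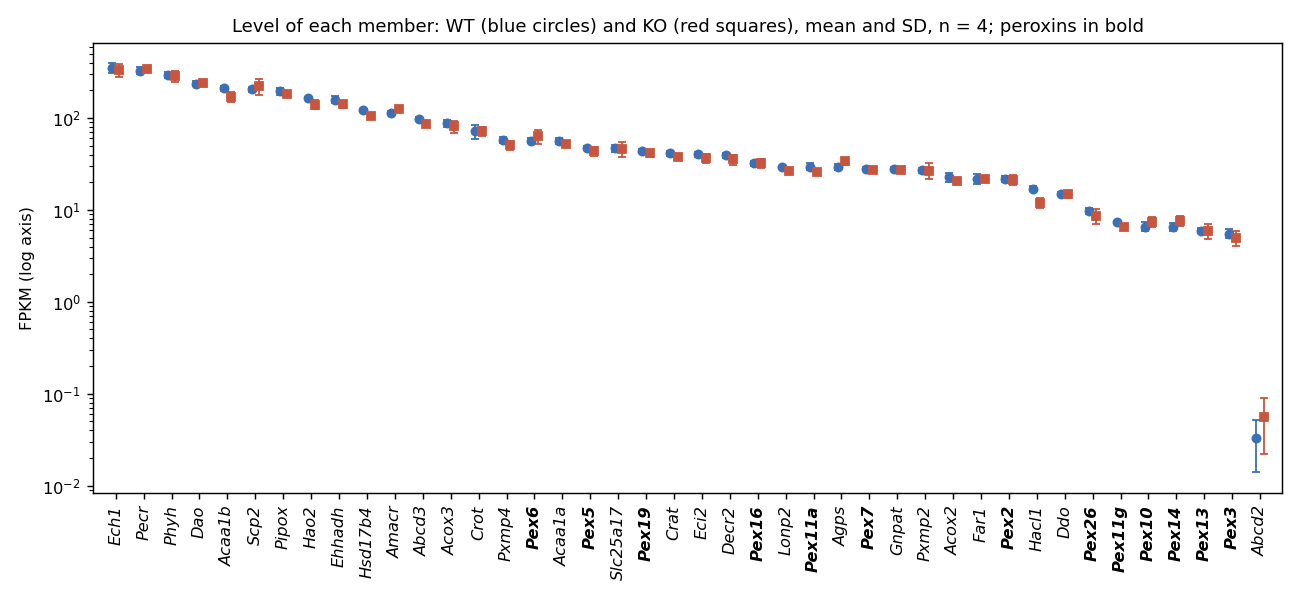
Mean FPKM (log axis) of each of the 42 genes in WT (blue circles) and KO (red squares) mice, ordered by WT level, with bars for the SD over 4 mice and peroxins in bold. Ech1 is the highest at 353 FPKM in WT and Abcd2 the lowest, and no peroxin lies among the 11 genes above 100 FPKM.

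Ech1, an isomerase that moves double bonds in unsaturated fatty acids, had 291, 360, 390 and 372 FPKM in WT and 302, 415, 293 and 323 FPKM in KO (replicates 1 to 4). Pecr, a reductase that works on such chains, had 288, 347, 353 and 323 FPKM in WT and 344, 382, 326 and 318 FPKM in KO. In both genes KO replicate 2 was the highest of the 8 mice and the groups overlapped.
Phyh, the hydroxylase that opens the alpha-oxidation of phytanic acid, had 261, 310, 306 and 292 FPKM in WT and 280, 344, 262 and 265 FPKM in KO. Dao, the D-amino acid oxidase, had 214, 240, 248 and 247 FPKM in WT and 236, 238, 243 and 234 FPKM in KO. These groups overlapped as well. The ranges of Ech1 (353 ± 43.1 FPKM) and Pecr (328 ± 29.6 FPKM) overlapped between WT mice. So did those of Pecr and Phyh (292 ± 22.1 FPKM, SD, n = 4). Within every single WT mouse, however, Ech1 was above Pecr and Pecr above Phyh. The 95% interval of the log2 fold change, KO against WT, was -0.43 to 0.29 for Ech1, -0.19 to 0.36 for Pecr, -0.30 to 0.29 for Phyh and -0.19 to 0.25 for Dao.

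Over all 42 genes, the KO kidneys differed little from WT. Fold changes here are on the log2(FPKM + 1) scale, tested with limma over 12118 genes with a mean of at least 1 FPKM, and a gene was called at an adjusted p under 0.05. Of the 41 tested genes 0 were called, where 0.0413% of all genes tested were (5 genes, the target included), 0.0248% as lower in KO. With limma-voom on reads recovered from the FPKM, 0 of them were called too. At an unadjusted p under 0.05 there were 2 genes lower in KO, Hacl1 and Acaa1b, where the share over all genes was 2.47%, and 1 higher, Agps, where it was 3.48%.

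Most of the differences were small and below 0. The fold change was below 0 in 29 of 41 genes (70.7%), against 52.8% of all genes tested, and the median was -0.07, against -0.0097 over all genes. In 7 of the 41 genes (17.1%) every KO value lay below every WT value, where the share of all genes tested was 3.01%. These were Hacl1, Acaa1b, Hsd17b4, Hao2, Abcd3, Pex11a and Pex11g. This count and later ones of its kind use deposited FPKM, before scaling. On the scaled log2 values of the fit, Hao2, Pex11a and Pex11g overlapped between groups. As differences from the WT mean, KO replicate 2 lay there at -0.017, -0.019 and -0.05. The lowest WT mice lay at -0.053, -0.112 and -0.11. The share over all genes was not counted on that scale. In 0 genes did every KO value lie above every WT value, where the share over all genes was 2.29%. Without overlap in either direction there were thus 7 of 41, against 5.3% of all genes.

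Without KO replicate 2 the shift was larger. The fold change was then below 0 in 35 of 41 genes (85.4%; 53.9% of all genes) with a median of -0.12, and 11 genes were lower and 2 higher, Pex6 and Agps, at an unadjusted p under 0.05 (5.7% and 5.94% of all genes). Hacl1 alone was called, where 0.173% of all genes were, 0.099% as lower in KO. Slc25a17 joined the genes whose KO values all lay below WT, which made 8 of 41 (19.5%; 5.54% of all genes), and in 0 did all KO values lie above WT (5.59% of all genes). KO replicate 2 was the highest of the 8 mice in 13 of the 42 genes and the lowest in 11.

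**Figure D2:**
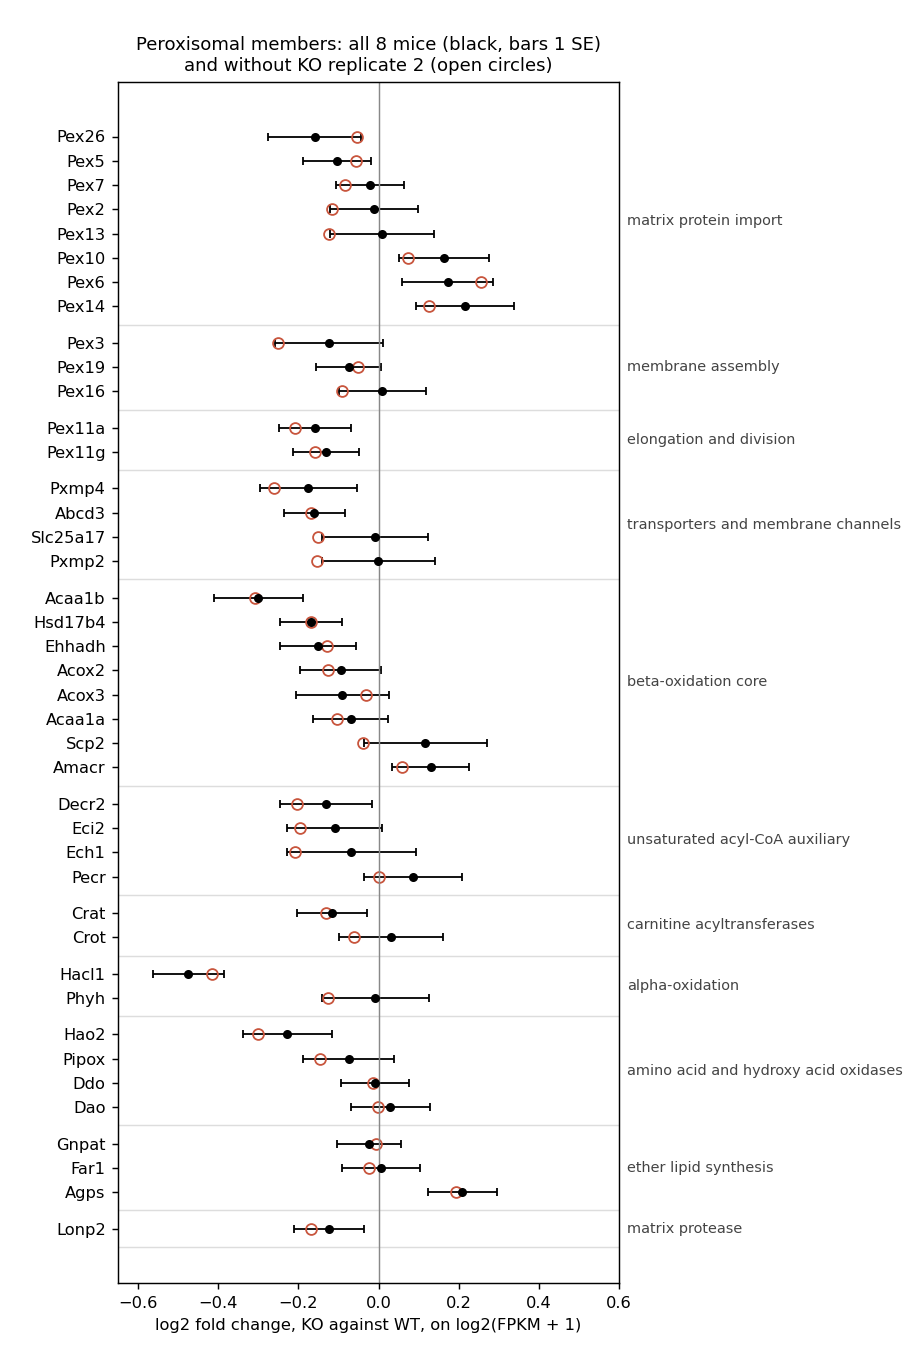
Log2 fold change of the 41 tested genes (KO against WT, on log2(FPKM + 1)), grouped by role and sorted within it. Black points with bars of 1 SE use all 8 mice and open circles leave out KO replicate 2. Points lie left of 0 in 29 genes and circles in 35, with Hacl1 farthest to the left.

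None of the peroxins passed the test, and their fold changes lay on both sides of 0. Of 13 tested, 8 had a fold change below 0 and 5 above, with a median of -0.02 that stayed below 0 under both other scalings (-0.04 and -0.02), and 0 were called. Their median was 0.01 without KO replicate 3 and -0.083 without KO replicate 2. Without the latter, 10 of 13 were below 0 and 3 were lower and 1 higher at an unadjusted p under 0.05 (5.7% and 5.94% of all genes). Summed over the 13 genes, WT had 302 ± 4.3 FPKM and KO 297 ± 11.3 FPKM (SD, n = 4).

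Matrix protein import takes 8 of the peroxins. Pex14 and Pex13 form the docking site on the membrane, Pex5 and Pex7 are the receptors, Pex2 and Pex10 are RING proteins that tag the receptor for recycling, and Pex6, held by Pex26, is part of the motor that pulls it out.
Pex14 had 5.84, 7.32, 6.89 and 6.14 FPKM in WT and 6.50, 8.83, 7.64 and 7.70 FPKM in KO, with a log2 fold change of 0.22 ± 0.12 (SE, limma adjusted p = 0.856). KO replicates 2, 3 and 4 lay above all WT mice and KO replicate 1 among them.
Pex6 had 54.0, 61.4, 54.7 and 56.6 FPKM in WT and 60.7, 49.5, 71.6 and 73.1 FPKM in KO, with a log2 fold change of 0.17 ± 0.11 (SE, limma adjusted p = 0.860). KO replicates 3 and 4 were above every WT mouse and KO replicate 2 was the lowest of the 8. Pex10 followed with 6.61 ± 0.723 FPKM in WT and 7.42 ± 0.897 in KO, and Pex26 had 9.81 ± 0.735 and 8.66 ± 1.65 FPKM, the latter spread by KO replicate 2 at 6.23 FPKM. The receptors Pex5 (47.6 ± 1.90 and 43.7 ± 4.70 FPKM) and Pex7 (28.1 ± 1.17 and 27.3 ± 1.66 FPKM) had overlapping groups. So did Pex2 (21.7 ± 1.56 and 21.3 ± 2.70 FPKM) and Pex13 (5.94 ± 0.377 and 5.95 ± 1.13 FPKM).

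Membrane assembly rests on 3 peroxins: Pex19, which carries membrane proteins, and Pex3 and Pex16, which receive it. Pex19 had 44.3 ± 1.22 FPKM in WT and 41.5 ± 3.74 in KO, Pex3 5.54 ± 0.646 and 4.95 ± 0.922, and Pex16 32.3 ± 1.84 and 32.1 ± 3.75 FPKM. All 3 overlapped between groups. Without KO replicate 2, the log2 fold change of Pex3 was -0.25, with an unadjusted limma p of 0.023 and an adjusted p of 0.343.

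The 2 peroxins of elongation and division shape the membrane before a peroxisome splits. They were also the 2 of 13 peroxins (15.4%) in which every deposited KO FPKM lay below every WT FPKM. The share of all genes tested was 3.01%. On the scaled log2 values of the fit, both genes overlapped between groups.
Pex11a had 31.6, 27.2, 27.5 and 32.3 FPKM in WT and 24.6, 27.1, 25.3 and 27.1 FPKM in KO. The highest KO mouse (27.10 FPKM) lay just under the lowest WT mouse (27.23 FPKM). The fitted difference was -0.16 ± 0.09 on the log2 scale (SE, limma adjusted p = 0.856).
Pex11g had 7.06, 7.56, 7.43 and 7.47 FPKM in WT and 6.62, 6.59, 6.16 and 6.88 FPKM in KO, with a log2 fold change of -0.13 ± 0.08 (SE, limma adjusted p = 0.860). All 4 KO mice lay below all 4 WT mice in deposited FPKM. Exons of Pex14 and Pex11g share 1776 and 1396 bases with the opposite-strand genes Gm17029 and Gm44775, and whether reads were counted by strand is not given in the sources used here.

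Among the 28 tested enzymes, transporters and membrane proteins, 21 had a fold change below 0 (75%), and the median was -0.07 (-0.13 without KO replicate 2, with 25 below 0). The 14 with the address signal and the other 14 tested were alike in direction: 10 and 11 were below 0, with medians of -0.07 and -0.08. At an unadjusted limma p under 0.05 there were 0 with the signal and 3 without it (5.95% of all genes). Without KO replicate 2 there were 3 and 6 (11.6% of all genes). Summed over all 29 genes, WT had 3118 ± 121 FPKM and KO 2975 ± 179 FPKM (SD, n = 4).

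Alpha-oxidation, which removes single carbons from branched and hydroxylated fatty acids, held the gene with the lowest p of the 42. Hacl1, the lyase that cuts the chain of 2-hydroxyacyl-CoA, had 17.0, 18.6, 16.3 and 16.6 FPKM in WT and 12.6, 9.73, 12.5 and 12.8 FPKM in KO. The 4 KO mice lay below the 4 WT mice, with KO replicate 2 the lowest. The KO mean was 69.6% of the WT mean, with a log2 fold change of -0.48 ± 0.09 (SE, unadjusted p = 0.00029, limma adjusted p = 0.159). Without KO replicate 2 it was -0.42 and passed the threshold (limma adjusted p = 0.043), with the other 3 KO mice at 12.6 ± 0.178 FPKM. Hacl1 lies on chromosome 14 from 31598730 to 31641286 (mm10, minus strand). Its exons share 1540 bases with Gm49387 on the same strand and 108 with Btd on the opposite strand, and how the authors counted reads in shared bases is not given in the sources used here. Phyh, the step before it, had a log2 fold change of -0.0084 ± 0.13 (SE, limma adjusted p = 0.991).

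**Figure D3:**
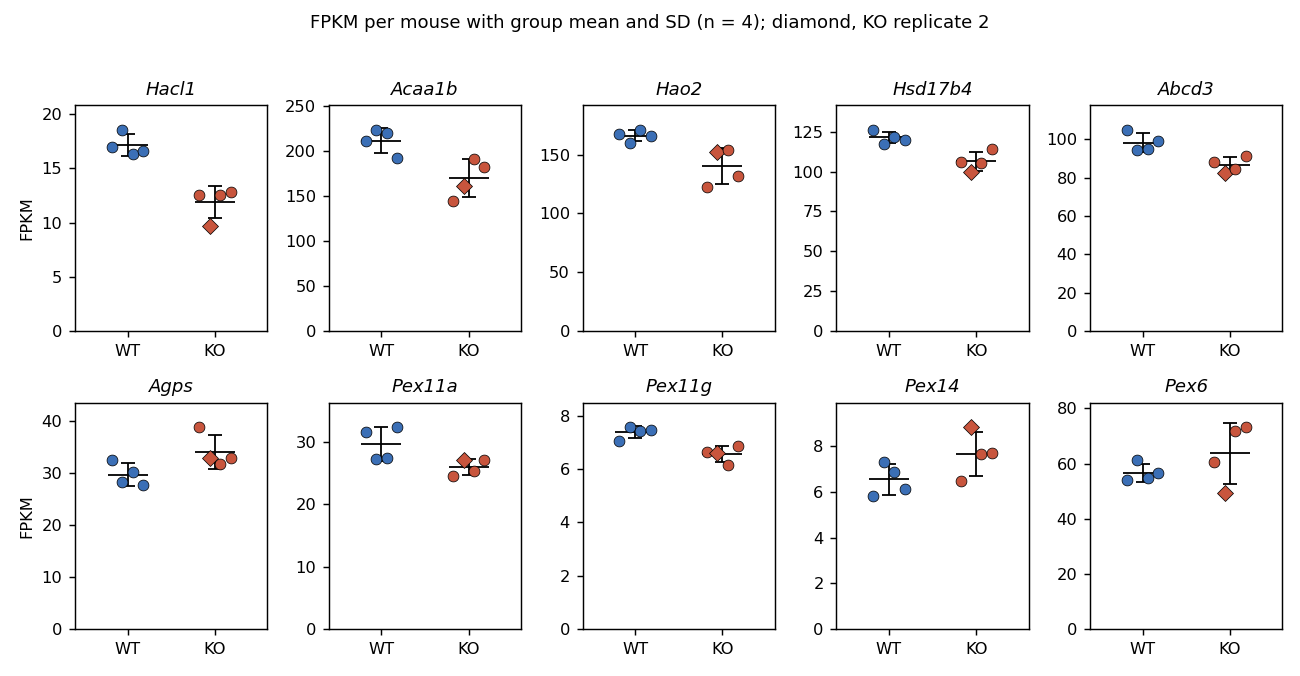
FPKM of each mouse for 10 of the genes with the lowest p, with the group mean and SD (n = 4) and KO replicate 2 as a diamond; each panel starts at 0. All KO points lie below all WT points for Hacl1, Acaa1b, Hao2, Hsd17b4, Abcd3, Pex11a and Pex11g, and the groups overlap for Agps, Pex14 and Pex6.

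The core of peroxisomal beta-oxidation, where acyl-CoA oxidases, bifunctional enzymes and thiolases shorten the chain, had 6 of 8 genes with a fold change below 0.
Acaa1b, a thiolase that performs the last cut, had 210.8, 223.8, 220.0 and 192.1 FPKM in WT and 144.9, 161.2, 191.0 and 182.6 FPKM in KO. All KO mice lay below all WT mice, with KO replicate 3 at 191.0 FPKM just under the lowest WT mouse. The fitted log2 fold change came to -0.30 ± 0.11 (SE, unadjusted p = 0.022, limma adjusted p = 0.749).
The coding sequence of Acaa1b is 96.5% identical to that of Acaa1a (1275 bases each) and shares 24.1% of its 100-base windows exactly, so the split of reads between both thiolases is uncertain. Summed FPKM of the pair depend on that split only through the different gene lengths. They were 268 ± 15.0 FPKM in WT and 222.6 ± 22.3 FPKM in KO (SD, n = 4), again with every KO mouse below every WT mouse. Acaa1a alone overlapped, at 56.3 ± 4.24 and 52.7 ± 2.13 FPKM.

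Hsd17b4, the D-bifunctional protein that hydrates and oxidises long and branched chains, had 126.3, 117.5, 121.8 and 120.1 FPKM in WT and 106.2, 99.8, 105.2 and 114.4 FPKM in KO. The groups did not overlap. A log2 fold change of -0.17 ± 0.08 was fitted (SE, limma adjusted p = 0.821), and it was also -0.17 without KO replicate 2.
Ehhadh, the L-bifunctional protein, had 155.6, 168.2, 171.0 and 142.2 FPKM in WT and 153.7, 126.1, 142.3 and 143.0 FPKM in KO, where WT replicate 4 lay among the KO mice. A log2 fold change of -0.15 ± 0.09 was fitted (SE, limma adjusted p = 0.860). The branched-chain oxidases Acox2 (22.7 ± 2.48 FPKM in WT, 20.8 ± 1.15 in KO) and Acox3 (87.5 ± 7.27 and 81.4 ± 12.3 FPKM) overlapped between groups. Scp2, which holds a thiolase and a sterol carrier domain, and Amacr, the racemase that readies branched chains for oxidation, were the 2 with a fold change above 0. Scp2 was at 286.7 FPKM in KO replicate 2 and at 178 to 225 FPKM in the other 7 mice, and its log2 fold change of 0.12 became -0.04 without that mouse. Amacr had 114.9 ± 5.88 FPKM in WT and 124.1 ± 7.39 in KO.

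Of the 4 auxiliary enzymes for unsaturated chains, Decr2, a dienoyl-CoA reductase, had 39.4 ± 2.71 FPKM in WT and 35.5 ± 4.63 in KO. Eci2, an enoyl-CoA isomerase, had 40.2 ± 2.87 and 36.8 ± 4.35 FPKM. Without KO replicate 2, Decr2, Eci2 and Ech1 had log2 fold changes of -0.20, -0.20 and -0.21, with unadjusted limma p of 0.056, 0.055 and 0.080. The carnitine acyltransferases, which hand shortened chains on for export, overlapped too: Crat had 41.3 ± 2.89 and 37.4 ± 1.62 FPKM, and Crot 71.8 ± 12.2 and 71.9 ± 8.03 FPKM.

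Abcd3, which brings acyl-CoA into the organelle, had 105.0, 94.2, 95.04 and 98.9 FPKM in WT and 88.2, 82.4, 84.3 and 91.2 FPKM in KO. All KO mice lay below all WT mice. They differed by a log2 fold change of -0.16 ± 0.08 (SE, limma adjusted p = 0.821).
Pxmp4, a small protein of the peroxisomal membrane, had 52.8, 57.2, 60.9 and 62.5 FPKM in WT and 43.5, 56.9, 49.1 and 54.3 FPKM in KO. KO replicates 2 and 4 lay within the WT range and the other 2 KO mice below it, with a log2 fold change of -0.18 ± 0.12 (SE, limma adjusted p = 0.860). The cofactor carrier Slc25a17 (46.8 ± 3.65 FPKM in WT, 46.2 ± 8.10 in KO) and the channel protein Pxmp2 (27.0 ± 1.83 and 26.9 ± 5.29 FPKM) had the same mean level in both groups to within 1 FPKM. In both, KO replicate 2 was the highest of the 8 mice, at 57.8 and 34.6 FPKM. Without it the log2 fold changes were -0.15 and -0.15 (limma, unadjusted p = 0.055 and 0.049).

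Of the oxidases, Hao2, which oxidises long-chain hydroxy acids, had 167.9, 159.8, 171.3 and 165.9 FPKM in WT and 122.5, 152.5, 154.0 and 132.2 FPKM in KO. In deposited FPKM the WT mice lay close together and every KO mouse below them, with KO replicates 1 and 4 the lowest. On the scaled log2 values of the fit, KO replicate 2 lay within the WT range. For Hao2 a log2 fold change of -0.23 ± 0.11 was fitted (SE, limma adjusted p = 0.833), and -0.30 without KO replicate 2 (limma adjusted p = 0.236). Pipox, which oxidises pipecolic acid and sarcosine, had 197.3 ± 16.7 FPKM in WT and 184.5 ± 11.6 in KO. The D-aspartate oxidase Ddo had 15.1 ± 0.611 and 14.8 ± 1.41 FPKM.

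Ether lipid synthesis held the gene with the lowest p among those with a fold change above 0. Agps, which replaces the acyl chain by an alkyl chain, had 32.4, 28.2, 30.2 and 27.7 FPKM in WT and 38.7, 32.8, 31.6 and 32.8 FPKM in KO. KO replicates 1, 2 and 4 lay above every WT mouse and KO replicate 3 under WT replicate 1. The log2 fold change came to 0.21 ± 0.09 (SE, unadjusted p = 0.035, limma adjusted p = 0.802). The acyltransferase Gnpat, which precedes Agps, had 28.1 ± 1.24 and 27.2 ± 1.91 FPKM, and Far1, which supplies the fatty alcohol, 21.8 ± 2.80 and 21.5 ± 1.52 FPKM. The matrix protease Lonp2 had 29.7 ± 0.730 FPKM in WT and 26.8 ± 1.89 in KO. This is a log2 fold change of -0.12 ± 0.09 (SE, limma adjusted p = 0.860).

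**Figure D4:**
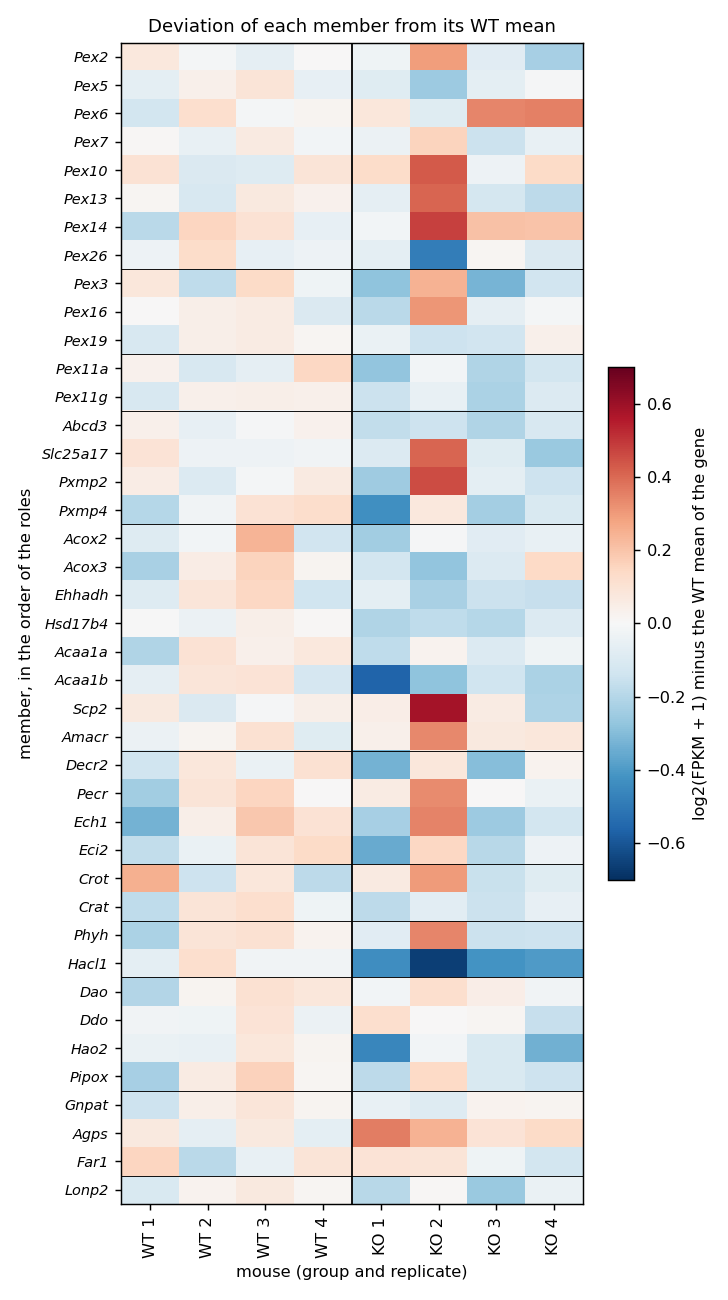
Difference of each mouse from the WT mean of the gene on log2(FPKM + 1), for the 41 tested genes (rows, in the order of the roles) and 8 mice (columns). Blue is lower and red higher. KO replicates 1, 3 and 4 are below the WT mean in 32, 31 and 32 genes, and KO replicate 2 in 16.

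Mouse by mouse, KO replicates 1, 3 and 4 were alike and KO replicate 2 was not. The first 3 lay below the WT mean in 32, 31 and 32 of 41 genes, and KO replicate 2 lay above it in 25. The median over the 13 peroxins, as a difference from the WT mean on the log2 scale, was 0.003, 0.034, 0.056 and 0.002 in WT and -0.062, 0.155, -0.082 and -0.054 in KO. Over the 28 other genes it was -0.090, 0.021, 0.088 and 0.016 in WT and -0.175, 0.076, -0.106 and -0.100 in KO. In each set, 3 KO mice lay below all WT mice and KO replicate 2 within or above them. Its extremes went both ways, from Hacl1 at -0.66 to Scp2 at 0.58.

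**Figure D5:**
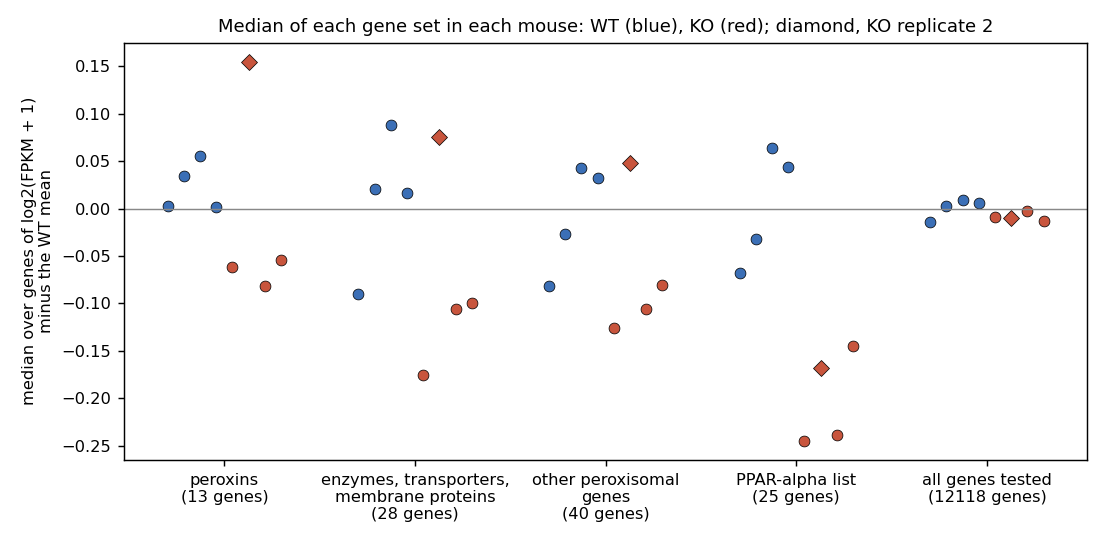
Median over the genes of a set of the difference from the WT mean, on log2(FPKM + 1), for each mouse; WT blue, KO red, KO replicate 2 as a diamond. KO replicate 2 lies at 0.155 for the peroxins, the other 3 KO mice between -0.082 and -0.054, and all mice near 0 over all 12118 genes.

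Markers of kidney cell types were compared over the same mice. In bulk tissue, fewer cells of a type and less RNA per cell cannot be told apart. The 9 markers of the first proximal tubule segments summed to 4781 to 5523 FPKM in WT and 4119 to 5299 FPKM in KO, with KO replicate 2 the lowest. The 7 markers of the last segment summed to 1362 to 1509 FPKM in WT and 1334 to 1759 FPKM in KO, with KO replicate 2 the highest. Most of this sum is the peroxisomal synthetase Slc27a2, itself among the other peroxisomal genes counted below, at 1184 FPKM in KO replicate 2 and 749.1 to 893.8 FPKM elsewhere. Of the other markers, Slc22a7 had 2.678 to 7.855 FPKM in WT and 8.96 to 27.71 FPKM in KO, without overlap (limma adjusted p = 0.275). KO replicate 2 was the highest mouse in Slc7a13, Slc22a13 and Cyp7b1. In Atp11a and Slc5a8 the lowest mouse was KO replicate 2. Without that mouse the KO range of the first segments lay within the WT range. The sum of the first segments is mostly Slc34a1 (2906 to 3767 FPKM). With KO replicate 2 kept, 8 of the 9 markers had a lower mean in KO. In Slc34a1 and Lrp2 that mouse was the lowest of the 8, at 2906 and 83.51 FPKM. The other KO mice had 3527 to 3584 and 197.9 to 215.6 FPKM there, within the WT ranges of 3108 to 3767 and 187.5 to 216.6 FPKM. For Slc6a19, Slc4a4 and Cubn every KO mouse lay below every WT mouse, by as little as 188.1 against 188.6 FPKM in Slc4a4. The 6 urothelial markers summed to 3.34 to 8.73 FPKM in WT and 13.3 to 31.2 FPKM in KO, without overlap. The largest part in KO was Psca, at 5.879 to 13.2 FPKM, against 0.6287 to 4.144 FPKM in WT. Upk1a and Upk1b overlapped between groups through KO replicate 2, and the other urothelial markers did not. The 5 macrophage markers found summed to 82.5 to 94.8 FPKM in WT and 74.4 to 159.2 FPKM in KO. The 4 markers of the thick ascending limb summed to 1235 to 1486 FPKM in WT and 933.2 to 1273 FPKM in KO. The 5 principal cell markers summed to 272.1 to 378.3 FPKM in WT and 342.3 to 487.3 FPKM in KO. KO replicates 1, 2 and 4 lay above all WT mice. Most of this sum is Aqp2, at 165.5 to 242.2 FPKM in WT and 228.1 to 364.3 FPKM in KO. The fitted fold change was above 0 in 4 of the 5 markers, but the mean FPKM of Aqp3 and Scnn1g was lower in KO. The part of all these cell types in the values of the peroxisomal genes was not tested.

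Peroxisomal genes outside the 42 were counted in the same way. Of 48 listed, 40 could be tested and 0 were called, by limma or by limma-voom. The fold change was below 0 in 26 and above in 14, with a median of -0.09, so 65% were below 0, against 52.8% of all genes. At an unadjusted p under 0.05, 5 were lower and 2 higher in KO (2.47% and 3.48% of all genes), and in 7 (17.5%, against 3.01%) every KO value lay below every WT value. Without KO replicate 2, 31 were below 0 (77.5%, against 53.9% of all genes). At that p, 10 were then lower and 1 higher (5.7% and 5.94% of all genes). In 11 (27.5%, against 5.54% of all genes) every KO value then lay below WT.
Acot3, an acyl-CoA thioesterase, had the lowest p, with 8.14, 9.18, 7.50 and 7.41 FPKM in WT and 3.84, 4.09, 5.42 and 4.73 FPKM in KO. The groups lay well apart, at 178 to 441 reads over the 8 mice. Exons of Acot3 share 396 bases with Gm49366 on the same strand and 312 with 4732463B04Rik on the opposite strand. How reads in these shared bases were counted is not given in the sources used here. For Acot3 a log2 fold change of -0.70 ± 0.11 was fitted (SE, limma adjusted p = 0.107), and it passed the threshold without KO replicate 2 or without KO replicate 3 (adjusted p = 0.043 in each). Acsl1, an acyl-CoA synthetase, had 39.6 ± 4.71 and 28.6 ± 4.89 FPKM (SD, n = 4), and Acot6, another thioesterase, 5.28 ± 0.353 and 4.27 ± 0.380 FPKM, with limma adjusted p of 0.424 and 0.712. Both were without overlap. In the other direction the lowest p belonged to Tysnd1, the protease that trims imported enzymes (62.8 ± 4.97 and 72.5 ± 7.28 FPKM), Mpv17l (64.0 ± 8.44 and 79.0 ± 11.7 FPKM) and the division factor Fis1 (105.5 ± 2.42 and 120.5 ± 24.8 FPKM). These 3 overlapped, and Fis1 reached 157.5 FPKM in KO replicate 2 but 106.1 to 111.8 FPKM in the other KO mice.

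Many genes of peroxisomal fatty acid oxidation are known targets of the nuclear receptor PPAR-alpha, so the receptors and non-peroxisomal targets were set beside them. Of 27 listed genes 25 were tested, and 2 fell in KO (Cyp4a14 among them), where 0.0248% of all genes did. The fold change was below 0 in 21 of them (84%), against 52.8% of all genes, with a median of -0.17, against -0.0097. Cyp4a14, an omega-hydroxylase of fatty acids, fell from 37.7 ± 8.89 to 8.32 ± 2.63 FPKM (SD, n = 4, limma adjusted p = 0.0091). That call was lost without WT replicate 1, 3 or 4 or KO replicate 1 (adjusted p = 0.105, 0.077, 0.066 and 0.060), with log2 fold changes from -1.94 to -2.02, against -2.04 with all mice. Cyp4a10, of the same family, had 102.2 ± 12.5 and 61.9 ± 8.13 FPKM (limma adjusted p = 0.194), and passed without KO replicate 2 (adjusted p = 0.011). Ppara itself had 42.2 ± 5.62 and 33.7 ± 14.3 FPKM with overlapping groups, spread by KO replicate 2 at 12.3 FPKM. The median of this list per mouse was -0.068, -0.032, 0.064 and 0.044 in WT and -0.245, -0.168, -0.239 and -0.145 in KO, so that here all 4 KO mice, KO replicate 2 included, lay below all WT mice.

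Promoter windows were searched for the binding sequence of that receptor. RefSeq windows from 250 bases before to 50 after the start (GRCm38.p6) were matched for 35 of the 42 genes. The receptor's site is known as a direct repeat of AGGTCA with 1 base between the copies. That repeat, searched on both strands, occurred in 0 of the 35, and in 0.0481% of all genes with a window. With AGGNCA in place of both copies, it occurred in 0 of the 35 and 0.451% of all genes. AGGTCA alone, which the repeat contains, occurred in 5 of the 35 (14.3%) and in 18.1% of all genes. Sites farther away were not searched.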

How the data were processed

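Poly-A RNA libraries of 8 kidneys were grouped by the genotype in the labels. Replicate numbers only name mice, and litter or cage is not given. The deposited table names no unit. It was read as FPKM, since each gene's low deposited values step by a fixed amount set by the gene. The submitters' processing notes list STAR 2.5, HTSeq 0.6.1, CASAVA and DESeq2 and the build mm10. Annotation, filters and strandedness: not given in the sources used here.

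Reads were recovered from the steps with a fitted length per gene (22945 genes, whole within 0.002 reads) and gave depths and trimmed-mean scaling factors (0.936 to 1.05). limma 3.58.1 in R 4.3.3 (trend and robust options, statmod 1.5.0) was run on log2(FPKM divided by the factor, plus a pseudocount of 1) for genes averaging 1 FPKM or more, two-sided, with Benjamini-Hochberg adjustment over 12118 genes. FPKM per mouse are as deposited, before this scaling. Fold changes on this scale understate those of low genes. Of the table's 35275 genes, 34490 matched GENCODE M21 by identifier, the source of positions and coding sequences.

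The 42 genes and the lists were chosen with earlier results of these data known. Per-mouse values are given for the 4 peroxins and 8 other genes with the lowest p and the 5 highest in WT. Of the other peroxisomal genes the 3 lowest p in each direction are named, and of the PPAR-alpha list Ppara and the 3 lowest p. A gene under this rule is not reported here. Genes named beside these were chosen after their values were seen. Alternatives were other scalings, filters, pseudocount and moderation, limma-voom, array weights and leaving out each mouse.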

Additional observations from a re-analysis of the deposited data

Results flagged for a closer look

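In a group of 4 mice, a single mouse was taken to stand apart when its gap to the nearest of the other 3, divided by the range of the group, was above Dixon's 95% critical value. Of 84 groups of the 42 genes, 4 were above it, and chance puts about 1 in 20 there. Hacl1 in KO was at 0.893, with KO replicate 2 at 9.73 FPKM and the nearest mouse at 12.5. Slc25a17 in WT was at 0.850, with WT replicate 1 at 52.2 FPKM and the nearest at 45.5. Crat in KO was at 0.836, with KO replicate 4 at 39.8 FPKM and the nearest at 36.9. Agps in KO was at 0.830, with KO replicate 1 at 38.7 FPKM and the nearest at 32.8. Each of the 4 came from a different mouse.

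Among the other named genes, KO replicate 2 stood apart in Fis1 (0.889, 157.5 FPKM against 111.8 in the nearest mouse) and in Ppara (0.895, 12.3 FPKM against 38.9).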

How the results depend on the processing

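With all mice kept, the number of called genes over the whole table was 5 or 6 under every alternative but array weights, which gave KO replicate 2 a weight of 0.1 and called 59. They called 1 of the 42 genes, Hacl1 (log2 fold change -0.43, adjusted p = 0.0090), and 1 other peroxisomal gene. Leaving out 1 mouse gave 3 to 21 calls over the whole table, with 3 without WT replicate 1 or 3, 21 without KO replicate 2 or 3 and 9 without KO replicate 4. It gave 0 to 1 among the 42 genes and 0 to 1 among the other peroxisomal genes.

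Of 41 tested genes, 27 kept the sign of their fold change in all 16 alternatives, and the 14 that did not were at most 0.12 from 0 with all mice, too close to 0 for their direction to be read at this depth and number of mice. Unscaled FPKM gave -0.0095 for Pex13, -0.011 for Pex16 and -0.014 for Far1, median-of-ratios scaling 0.0051 for Pxmp2, and array weights -0.11 for Pex13, -0.073 for Pex16, -0.034 for Pecr, -0.023 for Crot and -0.024 for Dao. With each mouse left out in turn, fold changes ran from -0.12 to 0.061 for Pex2, -0.083 to 0.020 for Pex7, -0.12 to 0.074 for Pex13, -0.092 to 0.076 for Pex16, -0.15 to 0.074 for Slc25a17, -0.15 to 0.082 for Pxmp2, -0.040 to 0.23 for Scp2, -0.061 to 0.12 for Crot, -0.13 to 0.039 for Phyh, -0.035 to 0.065 for Dao, -0.050 to 0.043 for Ddo, -0.069 to 0.0041 for Gnpat and -0.056 to 0.060 for Far1. The cause was not tested. No paired analysis was possible because no label ties a KO mouse to a WT mouse.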
